A study of Mus musculus with 12 samples.

Results

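The translation initiation factors of mouse 3T3-L1 cells were followed here through 40 genes, the subunits of eIF1 to eIF6 and the eIF4E-binding proteins. They were found through the transcript accession of each non-control array probe, which gave 75 probes of 39 genes among 41174 probes of 32301 gene names. Eif2b3 had no matching probe. Of the 39 genes, 23 had several probes and 16 a single one, and the value of a gene is that of its probe with the highest mean signal over the 12 arrays.

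3T3-L1 is a line of mouse embryonic fibroblasts, preadipocytes that turn into adipocytes when hormones are given. Resting cells at confluence, kept with 10% newborn bovine serum and without hormones, were compared with cells 6 h after a change to 10% fetal bovine serum with 0.5 mM isobutylmethylxanthine, 1 µM dexamethasone and 5 µg/ml insulin. Lysates were spun through sucrose gradients in the presence of cycloheximide, and fractions 5 to 7 were pooled as non-polysomal (np) and fractions 9 to 11 as polysomal (p) RNA. Each of the 4 groups, called np0, p0, np6 and p6, had 3 biological replicates on one-colour arrays. The hormones, the serum and the passing of 6 h changed together, so their parts cannot be told apart, and all values come from 1 cell line. Because the arrays read RNA pooled from many cells, fewer cells with a message and less of it per cell cannot be told apart either.

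Translation initiation brings the small ribosomal subunit to the start codon. eIF2, which eIF2B recharges with GTP, delivers the initiator tRNA together with eIF1, eIF1A and eIF3, the largest of these complexes, while eIF4F (the cap-binding eIF4E, the scaffold eIF4G and the helicase eIF4A) recruits the capped mRNA and eIF5 and eIF5B complete the joining of the large subunit. Insulin acts on this machinery through the kinase mTOR, which phosphorylates the eIF4E-binding proteins and raises translation of mRNAs that start with a terminal oligopyrimidine (TOP) tract, ribosomal protein mRNAs above all.

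Replicate arrays correlated with r = 0.985 to 0.992 over probes, and 55.6 to 60.7% of the probes were well above background on an array. All member probes lay well above background on all 12 arrays except that of Eif3a, which had 11 usable arrays. All 10 fibroblast and preadipocyte markers were above background on every array, none of the 3 endothelial markers was (Cdh5 rose to it on the 3 p6 arrays), 1 of 4 epithelial markers and 1 of 3 macrophage markers with a probe were, and so were 4 of 7 markers of mature adipocytes, at both times. As a check of the treatment, the glucocorticoid and cAMP responsive genes Cebpb, Fkbp5, Tsc22d3 and Per1 rose in polysomal RNA, 4 of 5 genes checked, by 4.35, 4.53, 3.85 and 2.14 (log2), and Cebpd had 0.97. The offset set by the added viral spike-in RNA, on which the scaling rests, was 0.05 to 0.17 on the other 9 arrays and -0.21 to -0.48 on the p6 arrays, and with it the median M-value over all genes was 0.50. Under scaling by the 75th percentile that median was 0.07, so the M-values below should be read against 0.50.

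The M-value is the polysomal change in log2 signal, p6-p0, less the non-polysomal change, np6-np0. It is positive where an mRNA moved towards the polysomal fraction between 0 h and 6 h. A gene was called when the adjusted p of limma was below 0.05 and the M-value above 1 or below -1. Of the 39 initiation factor genes, 14 were called higher and 0 lower, where 12.3% of all genes were called higher and 1.21% lower. Among genes above background on every array, to which 38 of the members belong, 18.1% were called higher and 1.18% lower. The adjusted p alone was below 0.05 for 31 members, beside 11405 of 32282 genes and 9134 of the 15064 above background on every array. At this looser limit Eif5b was the member with a negative value. M-values were positive for 37 members, beside 82.1% of all genes, and had 1 sign on all 3 slides for 36, beside 22629 of 32301. Among the 15064 genes above background on every array, 12341 were positive and 12722 had 1 sign on all 3 slides. The median of all genes was exceeded by 27 members and by 7707 of those 15064 genes. The called genes were 9 subunits of eIF3, Eif2s3x of eIF2, Eif2b2 of eIF2B, Eif4a1 of eIF4F, and the helicase cofactors Eif4b and Eif4h.

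**Figure D1:**
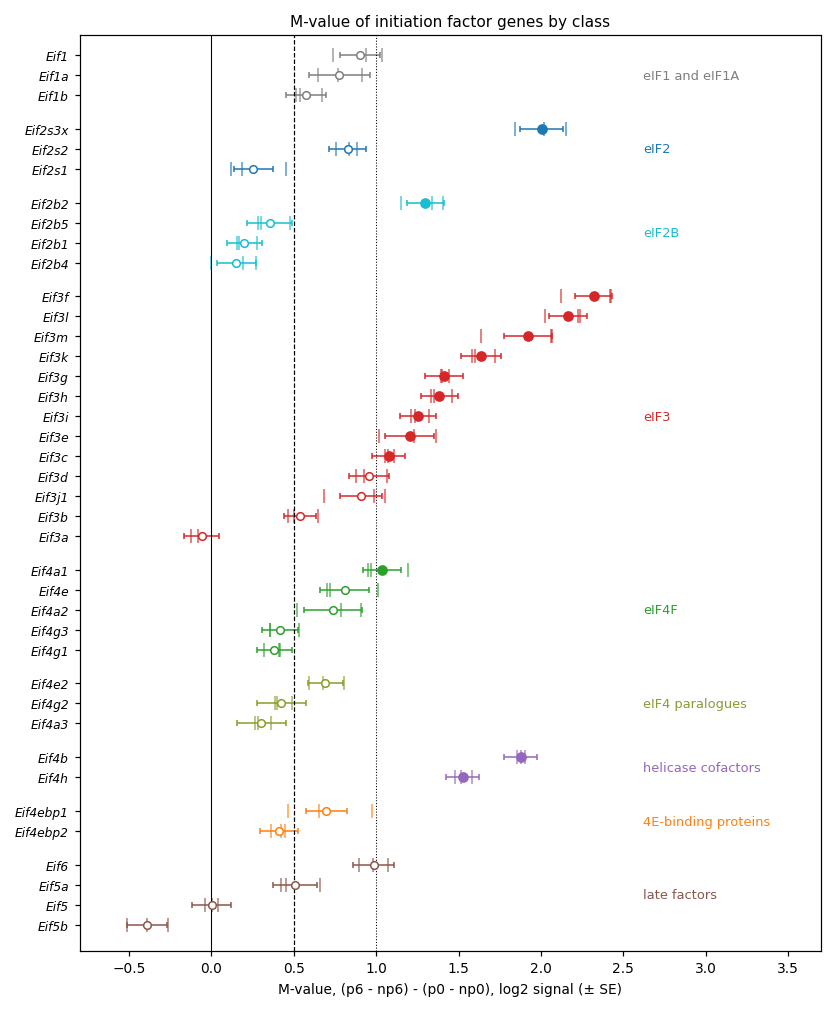
M-value of each of the 39 initiation factor genes (x axis, log2, point with SE from 12 arrays; Eif3a from 11) in its class, with a tick for each of the 3 slides (2 for Eif3a). Filled points were called; the dashed line is the median of all genes (0.50) and the dotted line the limit of 1. The eIF3 genes spread from -0.06 to 2.32, and only Eif5b and Eif3a lie below 0.

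The complexes differed in their M-values, which are described here without a test. The median over the 13 eIF3 genes was 1.25 and was 1.38, 1.21 and 1.32 on the 3 slides. For the 7 genes of eIF2 and eIF2B the median was 0.35, with 0.47, 0.28 and 0.45 on the slides, and for the 5 genes of eIF4F it was 0.74, with 0.70, 0.52 and 0.79. Set against the 0.50 of all genes, eIF3 lay 0.76 above, eIF4F 0.24 above and eIF2 with eIF2B 0.14 below (a difference of -0.14). Scaling by the 75th percentile, like the spike-in offset, subtracts 1 constant from each array, so missing values aside it could not change these differences. They were the same to 2 decimals there and were 0.49, 0.19 and -0.31 under quantile normalization. Under a straight line through the spike-ins they were -0.06, -0.39 and -0.78, so the place of eIF3 above all genes was not kept under that scaling, though its order among the complexes was. Nor was it kept under normexp background correction, which gave a median of 3.30 over all genes and differences of -2.26, -2.61 and -2.81.

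eIF3 is the scaffold of the preinitiation complex and bridges the small ribosomal subunit and eIF4G. Called higher were Eif3c, Eif3e, Eif3f, Eif3g, Eif3h, Eif3i, Eif3k, Eif3l and Eif3m, and the 4 others were Eif3a, Eif3b, Eif3d and Eif3j1. The largest M-value of all members was that of Eif3f, a subunit of the MPN type, whose log2 signal was 13.13, 13.06 and 13.16 in np0, 11.71, 11.91 and 11.88 in p0, 12.84, 12.84 and 12.85 in np6 and 13.82, 13.81 and 13.99 in p6. Its polysomal arrays lay below the non-polysomal arrays at 0 h and above them at 6 h, with no overlap among the groups. The M-value was 2.32 ± 0.113 (SE, adjusted p = 1.44e-06), which is 4.99-fold.

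Eif3l and Eif3k encode a pair of peripheral subunits, and Eif3m, Eif3e and Eif3h belong to the same PCI and MPN core. Eif3l read 15.19, 15.26 and 15.12 in np0, 15.53, 15.76 and 15.62 in p0, 14.23, 14.19 and 14.05 in np6 and 16.80, 16.72 and 16.79 in p6. Its np6 arrays were the lowest and its p6 arrays the highest, so that the mRNA fell in one fraction and rose in the other. Its M-value was 2.16 ± 0.117 (SE, adjusted p = 2.04e-06), the non-polysomal change -1.03 ± 0.0828 (SE, adjusted p = 3.73e-06) and the polysomal change 1.13 ± 0.0828 (SE, adjusted p = 1.18e-06). Eif3m followed the same order of groups, with 13.26, 13.23 and 13.22 in np0, 13.49, 13.88 and 13.75 in p0, 12.33, 12.31 and 12.19 in np6 and 14.62, 14.60 and 14.78 in p6, and had an M-value of 1.92 ± 0.146 (SE, adjusted p = 1.28e-05). Eif3k read 10.09, 10.23 and 10.02 in np0, 10.92, 11.18 and 11.08 in p0, 10.18, 10.17 and 10.17 in np6 and 12.72, 12.73 and 12.82 in p6. Here the non-polysomal arrays of both times overlapped and the p6 arrays stood above all others, which gave 1.63 ± 0.121 (SE, adjusted p = 1.12e-05).

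Eif3e read 13.90, 13.91 and 13.81 in np0, 13.82, 14.17 and 14.07 in p0, 13.09, 12.98 and 13.05 in np6 and 14.37, 14.25 and 14.54 in p6. The 0 h fractions overlapped and the 6 h fractions did not, and the M-value was 1.20 ± 0.148 (SE, adjusted p = 0.000203). Eif3h was alike at 0 h, with 14.45, 14.55 and 14.55 in np0, 14.27, 14.47 and 14.48 in p0, 14.53, 14.54 and 14.64 in np6 and 15.81, 15.79 and 15.92 in p6, so that the p6 arrays alone stood apart from the rest. It gave 1.38 ± 0.113 (SE, adjusted p = 1.95e-05). Eif3e, Eif3f, Eif3h and Eif4b are known as members of the TOP class, and these 4 had M-values of 1.20 to 2.32 with a median of 1.63; the list was drawn up with results of these data known. Without Eif4b, the 3 TOP genes within eIF3 had a median of 1.38, and all 3 were called. The 10 other eIF3 genes had a median of 1.17, and 6 of them were called.

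Eif3g and Eif3i, with Eif3b, form the module of eIF3 that takes part in scanning. Eif3g read 13.86, 14.02 and 13.89 in np0, 15.08, 15.33 and 15.13 in p0, 14.16, 14.09 and 14.14 in np6 and 16.79, 16.80 and 16.82 in p6, and its M-value was 1.41 ± 0.113 (SE, adjusted p = 1.69e-05). Eif3i read 10.03, 10.16 and 10.06 in np0, 11.00, 11.20 and 10.99 in p0, 10.36, 10.30 and 10.34 in np6 and 12.57, 12.55 and 12.59 in p6. In both genes the p6 arrays exceeded every other array and the non-polysomal arrays moved little, and Eif3i gave 1.25 ± 0.108 (SE, adjusted p = 2.56e-05). Eif3b, in contrast, read 12.09, 12.14 and 12.20 in np0, 14.68, 14.81 and 14.77 in p0, 13.14, 13.03 and 13.04 in np6 and 16.23, 16.17 and 16.26 in p6, higher at 6 h in both fractions. Its mRNA was already strongly polysomal in resting cells and its M-value was 0.54 ± 0.0970 (SE, adjusted p = 0.00188), which turned to -0.34 under quantile normalization.

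Eif3c, a core subunit, differed in its path. It read 13.29, 13.39 and 13.36 in np0, 15.18, 15.34 and 15.34 in p0, 12.42, 12.33 and 12.32 in np6 and 15.36, 15.35 and 15.41 in p6, with polysomal arrays that hardly parted between the times and a non-polysomal level that was lower at 6 h on every array. The M-value of 1.08 ± 0.0999 (SE, adjusted p = 4.06e-05) thus went with a polysomal change of 0.09 ± 0.0706 (SE, adjusted p = 0.305). Its other 3 probes gave M-values of 0.51, 0.98 and 1.25, of which the last was called, and polysomal changes of -1.0, 0.11 and -1.15, so the probes of Eif3c disagreed on the polysomal level. Eif3c was also the called gene whose sign turned with the scaling, at -0.02 under quantile normalization. Eif3d, which can bind the cap itself, and Eif3j1, a loosely bound subunit, fell just short of the limit with 0.96 and 0.91 (1.04 for Eif3d without the second p0 array and 1.02 for Eif3j1 without the second slide, which would be called), and further probes of Eif3j1 gave 0.06 and 0.64.

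Eif3a, the largest subunit, read 10.55 and 10.46 in np0, 11.74, 11.88 and 11.88 in p0, 10.72, 10.68 and 10.66 in np6 and 11.98, 11.89 and 12.00 in p6, where the first np0 array is missing because its spot was marked as an outlier. On the remaining 11 arrays the M-value was -0.06 ± 0.108 (SE, adjusted p = 0.684). With that spot kept, at a log2 signal of 14.95, the M-value was 1.42 ± 1.36 (SE, adjusted p = 0.419), and the deposited values, which keep it, gave 1.38. The position of Eif3a at the bottom of its complex therefore rests on that 1 spot being left out. In the order of the eIF3 M-values, the SE intervals of neighbours overlapped from Eif3f to Eif3m and from Eif3k to Eif3j1, while gaps beyond them lay between Eif3m and Eif3k, between Eif3j1 and Eif3b and between Eif3b and Eif3a.

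**Figure D2:**
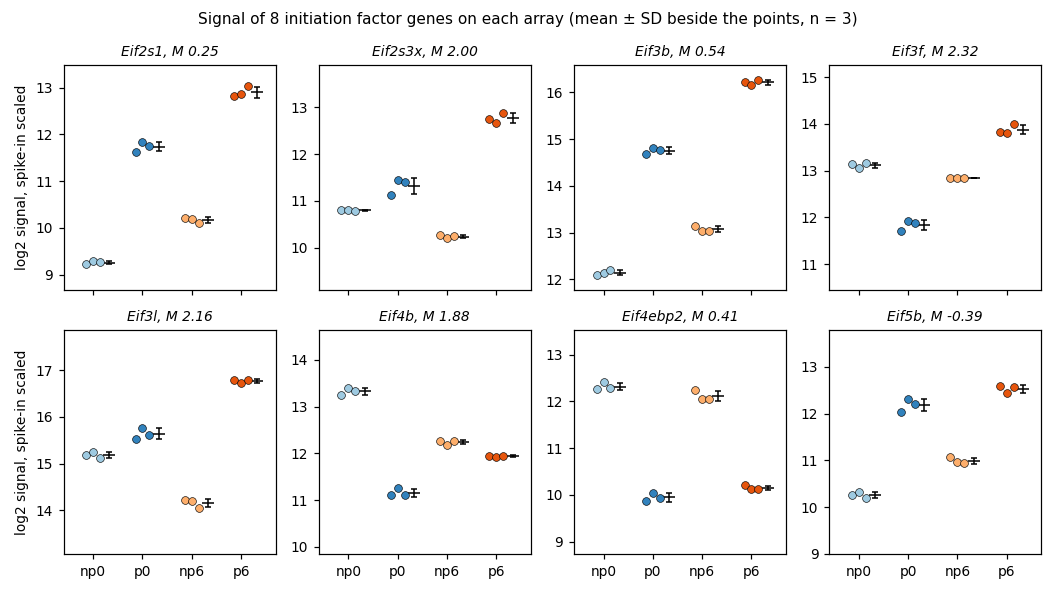
Log2 signal (y axis, spike-in scaled) of 8 genes on each of the 12 arrays, with 3 arrays in each of np0, p0, np6 and p6 and their mean ± SD beside them; all panels span the same log2 range. Eif3f moves from below to above its non-polysomal level, Eif3l and Eif2s3x part at 6 h, the fractions of Eif4b draw together, Eif4ebp2 stays non-polysomal, and Eif5b rises in both fractions, more in the non-polysomal.

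The subunits of eIF2, a trimer, had unlike M-values. Eif2s3x encodes the gamma subunit, which holds GTP and the initiator tRNA, and read 10.79, 10.80 and 10.79 in np0, 11.12, 11.44 and 11.40 in p0, 10.26, 10.20 and 10.25 in np6 and 12.74, 12.68 and 12.88 in p6. All p6 arrays lay above all others and all np6 arrays below. The M-value was 2.00 ± 0.132 (SE, adjusted p = 5.7e-06), or 4.01-fold, and its other 2 probes gave 2.17 and 2.18. The probe of its paralogue on the Y chromosome, Eif2s3y, was not well above background on any array.

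Eif2s1, the alpha subunit that stress kinases phosphorylate, read 9.22, 9.29 and 9.26 in np0, 11.63, 11.84 and 11.75 in p0, 10.22, 10.18 and 10.10 in np6 and 12.81, 12.86 and 13.04 in p6. Its groups did not overlap either, but the step from 0 h to 6 h was alike in both fractions, and the M-value was 0.25 ± 0.119 (SE, adjusted p = 0.117). Eif2s2, the beta subunit, lay between them with 0.83 ± 0.110 (SE, adjusted p = 0.000309). On each of the 3 slides the order was Eif2s3x, Eif2s2, Eif2s1, with 2.15, 1.84 and 2.02 for the first and 0.19, 0.12 and 0.45 for the last.

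eIF2B exchanges GDP for GTP on eIF2. Of its 4 measured genes, Eif2b2 was called, with 12.29, 12.42 and 12.32 in np0, 14.05, 14.27 and 14.16 in p0, 12.75, 12.85 and 12.83 in np6 and 15.91, 15.85 and 16.01 in p6, where polysomal RNA rose more than non-polysomal RNA. It gave 1.30 ± 0.114 (SE, adjusted p = 2.95e-05). Eif2b4 read 10.75, 10.91 and 10.79 in np0, 12.47, 12.70 and 12.60 in p0, 11.57, 11.70 and 11.61 in np6 and 13.55, 13.48 and 13.61 in p6, with rises of similar size in both fractions and an M-value of 0.15 ± 0.117 (SE, adjusted p = 0.316). Eif2b1 and Eif2b5 gave 0.20 and 0.35, neither with an adjusted p below 0.05, and the values of Eif2b4 and Eif2b1 lay within 1 SE of each other. Under scaling by the 75th percentile and quantile normalization the M-values of Eif2s1, Eif2b1, Eif2b4 and Eif2b5 turned negative, from -0.07 to -0.53, so no direction is given for them.

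In eIF4F the helicase Eif4a1 was called, with 12.42, 12.55 and 12.45 in np0, 14.04, 14.25 and 14.29 in p0, 13.50, 13.57 and 13.51 in np6 and 16.31, 16.23 and 16.31 in p6. Both fractions rose and the polysomal rise was the larger, with an M-value of 1.04 ± 0.115 (SE, adjusted p = 0.000109). The call was narrow and was lost without the second np0 array (0.997), without the first p0 array (0.96) and without the first slide (0.96), whereas its other probes gave 1.35 and 2.60. The paralogue Eif4a2 gave 0.74 ± 0.178 (SE, adjusted p = 0.00928), and its second probe 1.33, which was called.

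The cap-binding protein Eif4e read 9.75, 9.74 and 9.62 in np0, 10.66, 10.61 and 10.71 in p0, 11.31, 11.21 and 10.93 in np6 and 12.92, 12.79 and 13.03 in p6. It rose by 2.26 in polysomal and 1.45 in non-polysomal RNA without overlap, so that its M-value was 0.81 ± 0.150 (SE, adjusted p = 0.00217). The scaffold Eif4g1 read 10.46, 10.57 and 10.44 in np0, 12.19, 12.41 and 12.26 in p0, 10.65, 10.60 and 10.54 in np6 and 12.80, 12.75 and 12.78 in p6 and gave 0.38 ± 0.107 (SE, adjusted p = 0.0194). Eif4g3 gave 0.41, within 1 SE of it, and both scaffolds turned negative under the 75th percentile and quantile scalings.

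The cofactors Eif4b and Eif4h stimulate the helicase. Eif4b read 13.26, 13.40 and 13.32 in np0, 11.10, 11.26 and 11.11 in p0, 12.26, 12.18 and 12.26 in np6 and 11.95, 11.92 and 11.95 in p6. In resting cells the polysomal arrays lay far below the non-polysomal arrays, and at 6 h the fractions had drawn together without overlapping. The M-value was 1.88 ± 0.100 (SE, adjusted p = 1.89e-06), made up of a non-polysomal change of -1.09 and a polysomal change of 0.78. Its other probes gave 2.94 and 1.73, and the former put the 6 h polysomal level above the non-polysomal one by 1.24 where the brightest probe had it below by a difference of -0.29. Eif4h read 14.12, 14.10 and 14.07 in np0, 15.22, 15.38 and 15.33 in p0, 14.09, 13.92 and 14.04 in np6 and 16.76, 16.71 and 16.78 in p6, with a rise in polysomal RNA alone, and gave 1.52 ± 0.101 (SE, adjusted p = 5.85e-06).

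The paralogues outside eIF4F had no call. Eif4e2, a cap-binding protein that takes part in repression, read 11.61, 11.67 and 11.63 in np0, 11.52, 11.74 and 11.62 in p0, 12.59, 12.53 and 12.50 in np6 and 13.18, 13.19 and 13.30 in p6, with both fractions higher at 6 h, and gave 0.69 ± 0.106 (SE, adjusted p = 0.000747). Eif4a3, the helicase of the exon junction complex, read 8.44, 8.60 and 8.43 in np0, 11.47, 11.77 and 11.64 in p0, 9.30, 9.27 and 9.34 in np6 and 12.61, 12.70 and 12.92 in p6. Its polysomal excess was 3.14 at 0 h and 3.44 at 6 h, and its M-value of 0.30 ± 0.150 (SE, adjusted p = 0.133) turned negative under the 75th percentile and quantile scalings. Eif4g2, which lacks the eIF4E site, gave 0.43, and -0.03 under quantile normalization.

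The 4E-binding proteins block eIF4E from eIF4G until they are phosphorylated. Eif4ebp1 read 15.59, 15.54 and 15.68 in np0, 13.63, 13.89 and 13.68 in p0, 15.99, 15.91 and 15.85 in np6 and 14.67, 14.73 and 14.82 in p6 and Eif4ebp2 read 12.26, 12.41 and 12.28 in np0, 9.87, 10.04 and 9.92 in p0, 12.23, 12.05 and 12.06 in np6 and 10.20, 10.13 and 10.12 in p6. In each, every non-polysomal array exceeded every polysomal array at both times. The M-values were 0.70 ± 0.125 (SE, adjusted p = 0.00183) for Eif4ebp1 and 0.41 ± 0.115 (SE, adjusted p = 0.0204) for Eif4ebp2, on either side of the median of all genes. The value of Eif4ebp1 was -0.00 under quantile normalization and that of Eif4ebp2 was -0.02 under the 75th percentile.

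Eif1, which guards the choice of start codon, read 15.37, 15.44 and 15.38 in np0, 13.35, 13.65 and 13.58 in p0, 16.86, 16.91 and 16.85 in np6 and 15.87, 15.86 and 15.98 in p6. Both fractions rose by more than the spread of the arrays, and the M-value was 0.90 ± 0.121 (SE, adjusted p = 0.000322). Its paralogue Eif1b read 11.82, 11.77 and 11.71 in np0, 9.93, 10.13 and 10.15 in p0, 12.72, 12.61 and 12.73 in np6 and 11.50, 11.52 and 11.68 in p6, again higher at 6 h in both fractions and at each time higher in non-polysomal RNA, and gave 0.57 ± 0.122 (SE, adjusted p = 0.00468). Eif1a, which binds the A site, gave 0.78.

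Among the factors of the late steps none was called. Eif6, which keeps the large subunit apart, read 11.84, 12.02 and 11.85 in np0, 13.68, 13.92 and 13.73 in p0, 12.63, 12.50 and 12.51 in np6 and 15.36, 15.38 and 15.45 in p6, with an M-value just under the limit at 0.98 ± 0.122 (SE, adjusted p = 0.000209), and from 1.00 to 1.06, hence called, in the absence of the first or the third np0 array, the second p0, the first np6 or the first p6 array. Eif5b, the GTPase of subunit joining, read 10.25, 10.32 and 10.19 in np0, 12.04, 12.31 and 12.21 in p0, 11.06, 10.96 and 10.95 in np6 and 12.59, 12.44 and 12.58 in p6. Its non-polysomal arrays rose by more than its polysomal arrays, which gave -0.39 ± 0.122 (SE, adjusted p = 0.0316). All 5 probes of Eif5b were negative, from -0.66 to -0.22, and under quantile normalization the value was -1.05 and the gene was called lower. Eif5, the activator of eIF2's GTPase, gave 0.00 ± 0.117 (SE, adjusted p = 0.993), and Eif5a, which helps the ribosome over stalls and needs hypusine, 0.51 ± 0.133 (SE, adjusted p = 0.0141). Their values were -0.68 and -0.06 under quantile normalization.

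The scaling set how many members were called. Eif2s3x, Eif3f, Eif3k, Eif3l, Eif3m and Eif4b, 6 of the 14, were called under each of 5 scalings (spike-in offset, 75th percentile, quantile, a line through the spike-ins, and the deposited log2 values), and 13 of the 14 were positive in all 5, all but Eif3c. The 75th percentile left 7 called, against 3.88% of all genes, and quantile normalization 6 called higher and 1 lower, against 3.16% and 3.5%. Under the line through the spike-ins 21 members were called higher, but so were 63.8% of all genes, a larger share than that of the members, and with the deposited values the share of all genes was 8.34%.

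**Figure D3:**
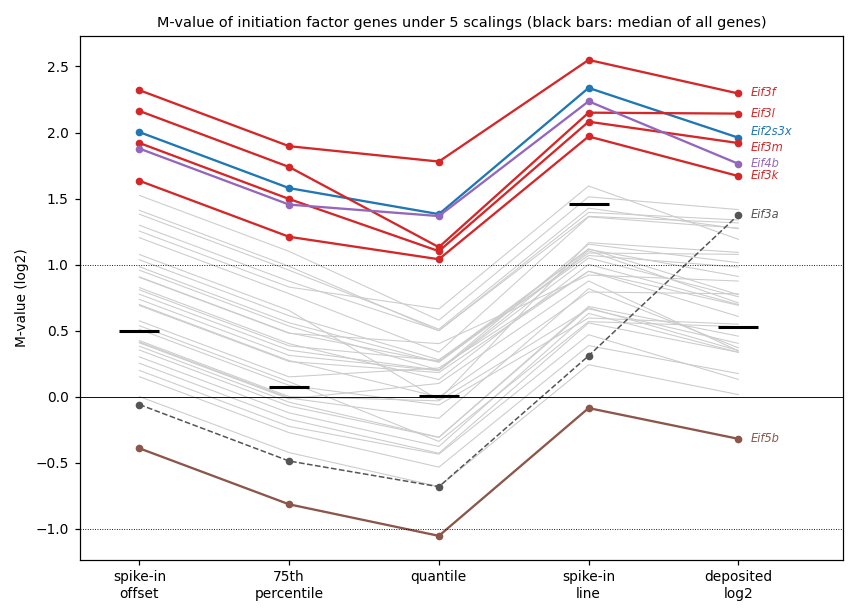
M-value (y axis, log2) of each member under 5 scalings (x axis), with the median of all genes as black bars and the limits of 1 and -1 dotted. The 6 coloured upper lines stay above 1 throughout, Eif5b is the lowest of the members under the spike-in offset and lies below 0 in all 5, and Eif3a (dashed) jumps to 1.38 with the deposited values, which keep its outlier spot.

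Start sites are shown for the genes at either end of the M-values because several members are known TOP messages and the tract would lie at the first base of the mRNA. RefSeq start windows were used for 32 of the 40 genes. No window was used for Eif1a, Eif2b3, Eif3e, Eif3h, Eif3i, Eif4ebp1, Eif4g2 and Eif6. Their absence here does not show that RefSeq holds no start for them. Each window holds 10 bases before and 20 bases from the annotated start on (build GRCm38.p6, written along the gene's strand), and the capitals mark its longest run of C and T. The first 6 genes are those called under all scalings and the last 3 had the lowest M-values.
Eif2s3x, chrX:94212632-94212661, minus strand: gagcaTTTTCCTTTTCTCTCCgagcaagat
Eif3f, chr7:108934405-108934434, plus strand: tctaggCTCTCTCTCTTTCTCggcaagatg
Eif3l, chr15:79075213-79075242, plus strand: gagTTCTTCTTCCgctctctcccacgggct
Eif3m, chr2:105017008-105017037, minus strand: cggtcggcgtgTTTCTggatcggagcgtct
Eif4b, chr15:102073763-102073792, plus strand: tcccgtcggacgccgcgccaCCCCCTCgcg
Eif3k, chr7:28981869-28981898, minus strand: aaccggcgctggtgctgaaagcgCCTTTCC
Eif3a, chr19:60790674-60790703, minus strand: CTCgggcggcggcgctgccgccgcgaggga
Eif5, chr12:111538091-111538120, plus strand: cgacgtgcatgcgagCCaatgacaagagaa
Eif5b, chr1:37998000-37998029, plus strand: ctgggTTCCCacctggccggcggctctact

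A run of at least 8 stood in 6 of the 41 windows used for the members, and in 11.2% of all 32851 windows. The 6 were those of Eif2s3x (16 bases), Eif2b2 (8), Eif2b5 (14), Eif3f (15), Eif3l (10) and 1 of the windows of Eif4e (8). Runs of at least 10 stood in 4.77% of all windows and runs of at least 15 in 0.825%. A C at the annotated start itself, followed by 4 bases of C or T, was found in Eif2s3x and Eif3f, and in 2.51% of all windows. In Eif3l the run began 7 bases before the annotated start. Of the 6 genes with such a run, Eif2s3x, Eif2b2, Eif3f and Eif3l were called by M, and Eif2b5 and Eif4e were not. The windows of Eif4b, Eif3m and Eif3k, which were called, had runs of 7, 5 and 7, and those of Eif3a, Eif5 and Eif5b runs of 3, 2 and 5. The starts used in these cells were not measured, and the run length was chosen after the sequences had been seen.

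The change over time was also taken within each fraction. In polysomal RNA 25 of 39 members rose and 0 fell, where 18.5% of all genes rose and 4.48% fell (28.1% and 6.03% among genes above background on every array). The highest rises were those of Eif1 with 2.38 ± 0.0854 (SE, adjusted p = 1.01e-08), Eif4e with 2.26 ± 0.106 (SE, adjusted p = 5.42e-08), Eif4a1 with 2.09 ± 0.0811 (SE, adjusted p = 1.61e-08) and Eif3f with 2.04 ± 0.0798 (SE, adjusted p = 1.68e-08). By the brightest probe all 39 values were positive, from 0.09 for Eif3c upward. So were those of 25889 of 32300 genes, and of 11236 of the 15064 above background on every array. The median over all genes was 0.54. The other probes of Eif3c gave -1.0, 0.11 and -1.15, of which the first and the last were called lower. Under quantile normalization the value of Eif3l was -0.14. The calls of Eif2s2 and Eif4ebp1, at 1.01 and 1.01, were lost without the first p0 array (0.96 and 0.95) and without the third p6 array (0.98 and 0.97), that of Eif4ebp1 also without the third p0 array (0.98). The count was 15 under the 75th percentile, where 8.2% of all genes rose. Under quantile normalization 4 of the 39 rose (Eif1, Eif3f, Eif3j1 and Eif4e) and Eif3c fell, where 7.16% of all genes rose and 8.76% fell.

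In non-polysomal RNA 5 members rose, against 7.47% of all genes, and 2 fell, against 7.86% (11.8% and 11% among genes above background on every array). Eif1, Eif4e, Eif2b1, Eif5a and Eif4a1 rose, by 1.47, 1.45, 1.44, 1.07 and 1.05, and all of them rose in polysomal RNA too. Eif4b and Eif3l fell, by changes of -1.09 and -1.03. Eif3c and Eif3m stood just inside the limit with -0.99 and -0.96. All these values are those of the brightest probes. Some other probes of Eif3c were called lower, with changes of -1.51 and beyond, and 1 gave -0.88 without a call. The other probes of Eif4a1 gave 0.82 and -0.12 and were not called. Further probes of Eif1a, Eif2s1, Eif3b, Eif3j1, Eif4e2 and Eif5b were called higher, though their brightest probes were not. The call of Eif3l was lost without the second np0 array (-0.996) and without the third np6 array (-0.98). The M-values called higher thus had different parts. Eif3f and Eif3k, with M-values of 2.32 and 1.63, rose in polysomal RNA with non-polysomal changes of -0.28 and 0.06. Eif3c and Eif3e, with smaller M-values of 1.08 and 1.20, had non-polysomal changes of -0.99 and -0.83. Their polysomal changes were 0.09 and 0.37, and neither gene was called in either fraction by its brightest probe.

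**Figure D4:**
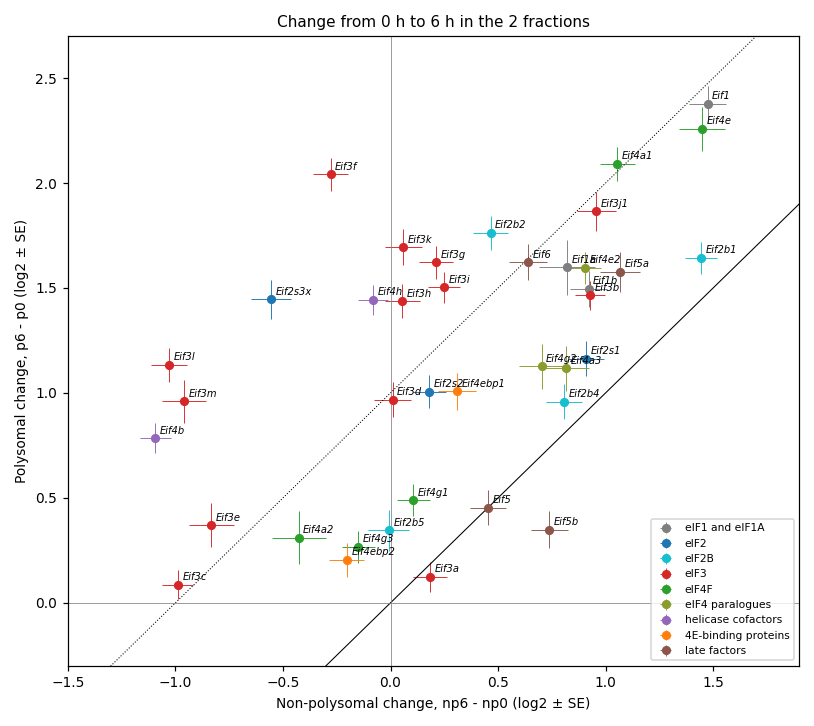
Polysomal change (y axis, p6 - p0) against non-polysomal change (x axis, np6 - np0) of the 39 genes, log2 with SE, coloured by class. The solid line marks an M-value of 0 and the dotted line an M-value of 1; all points lie above 0 on the y axis, and Eif3l and Eif4b lie left of -1 on the x axis.

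The difference between the fractions at each time was taken from the same spike-in scaled signal. At 0 h 20 members were called higher in polysomal RNA and 7 in non-polysomal RNA, where 24% and 10.7% of all genes were. At 6 h the counts were 31 and 3, beside 34.4% and 6.87%. Among genes above background on every array, to which 38 of the members belong, 44.5% and 13.1% were called at 0 h and 57.6% and 8.06% at 6 h. The balance of the fractions over all genes turned with the scaling, to 10.1% polysomal and 28.5% non-polysomal at 0 h and 11.1% and 23% at 6 h under the 75th percentile. Under quantile normalization it was 14.4% and 14.9% at 0 h and 13.5% and 14.1% at 6 h. With the deposited values 26.1% of all genes were polysomal at 6 h.

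All 13 eIF3 genes were called polysomal at 6 h, from 1.03 for Eif3f to 3.15 for Eif3b, and 6 at 0 h, when Eif3f was called non-polysomal with -1.29. Eif3f lost its call at 6 h without the third p6 array (0.98). Under the 75th percentile and under quantile normalization 8 of the 13 were called at 6 h, without Eif3a, Eif3e, Eif3f, Eif3h and Eif3i, and with the deposited values 12. All 7 genes of eIF2 and eIF2B were called polysomal at 6 h, and 6 at 0 h, Eif2s3x with 0.53 being the exception. Under the 75th percentile 4 of these 7 were called at 6 h, and under quantile normalization 3. The 0 h call of Eif2s2 (1.00) was lost without the third np0 array (0.96), the second p0 array (0.97) or the third (0.98), and that of Eif4g2 without the first p0 array (-0.996). The members called non-polysomal at 0 h were Eif4ebp2 (-2.37), Eif4b (-2.17), Eif1 (-1.87), Eif4ebp1 (-1.87), Eif1b (-1.69), Eif3f and Eif4g2 (-1.06). At 6 h the 3 were Eif4ebp2, Eif4ebp1 and Eif1b, with -1.96, -1.17 and -1.12. Polysomal counts fell to 6 at 0 h and 16 at 6 h under the 75th percentile, and the 3 genes stayed called non-polysomal at 6 h there and under quantile normalization.

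**Figure D5:**
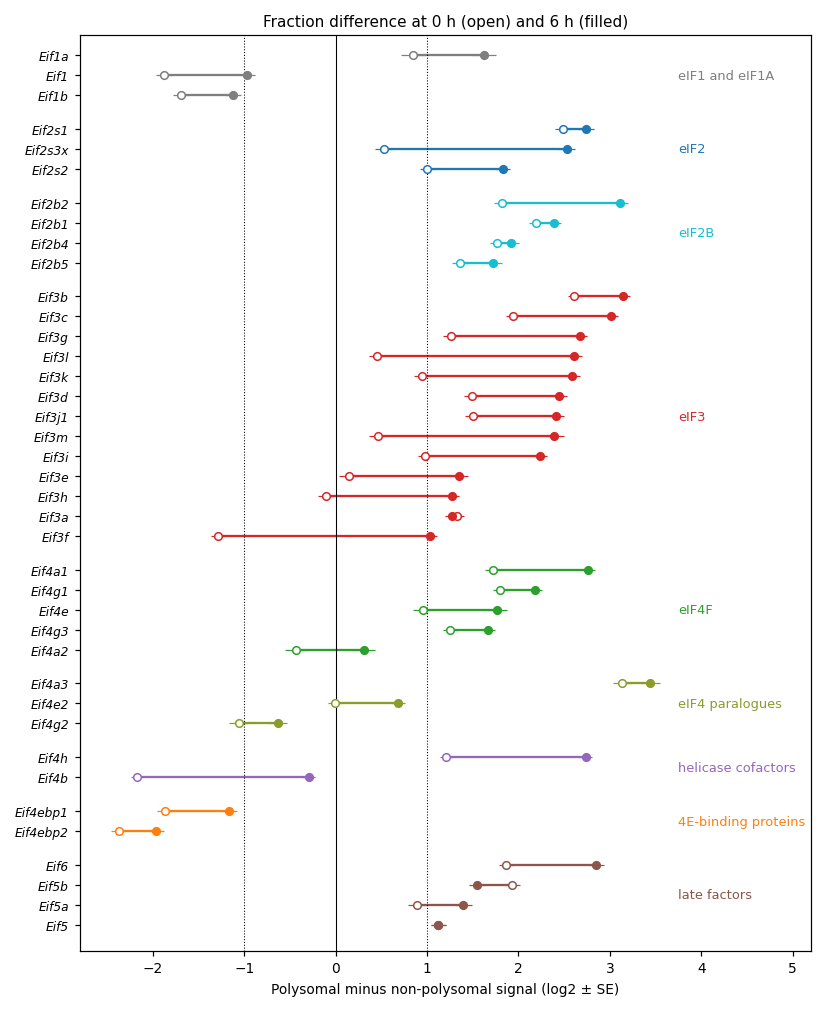
Polysomal minus non-polysomal signal (x axis, log2 with SE) of each gene at 0 h (open) and at 6 h (filled), by class, with dotted limits at 1 and -1. With the spike-in offset every eIF3 gene lies right of 1 at 6 h, and both 4E-binding proteins lie left of -1 at both times.

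Other genes of the pathway were taken from a list of 45 regulators, of which 42 had a probe and Pdcd4, Eif3j2 and Eif4e1b had none. Of the 42, 7 were called higher by M and 1 lower, with a median of 0.44 beside the 0.50 of all genes, where 12.3% of all genes and 18.1% of those above background were called higher, so the share of the regulators was near the background. Rps6, a ribosomal protein and target of the S6 kinases that is itself a TOP message, had 2.15 ± 0.106 (SE, adjusted p = 1.48e-06). Eif4e3, a further cap-binding protein, gave 1.29, the eIF4E kinases Mknk1 and Mknk2 gave 1.25 and 1.20, the enzymes of hypusine synthesis Dhps and Dohh gave 1.15 and 1.19, and Eif2d, which can deliver tRNA without eIF2, gave 1.05. Atf4, the transcription factor whose upstream reading frames respond to eIF2 phosphorylation, was the one called lower, with -1.37 ± 0.132 (SE, adjusted p = 5.02e-05), and moved from -0.83 to -2.20 in its fraction difference. Under the 75th percentile 1 regulator was called higher and 3 lower, beside 3.88% and 3.11% of all genes, and under the spike-in line 18 higher, a smaller share than the 63.8% of all genes.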

How the data were processed

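RNA of 12 samples, 3 biological replicates in each of 4 groups of time and fraction, was hybridised to one-colour Agilent mouse arrays, and groups and replicate numbers were taken from the sample labels. Per the file headers, the deposited intensities came from Feature Extraction 10.7.1.1, which had subtracted the background and detrended the signal without normalizing between arrays. The authors also deposited log2 values, used as an alternative, which equalled the log2 of the median pixel signal, with replicate spots averaged, apart from 1 offset on each array. Feature names rest on transcript accessions: 18754 of 32839 accessions, or 26690 probes (64.8%), had a symbol through RefSeq. The files of the arrays give no mean pixel signal, so the normexp alternative was run on median signals. PCR, blots and gradient profiles were not analysed here.

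The processed signal was taken to log2, outlier-marked spots were dropped, which left 484 missing values, and repeated spots were averaged. From each array was subtracted the mean over 10 spike-in transcripts, with 32 spots each, of the median log2 signal, centred over arrays. All 41174 probes were fitted in R 4.3.3 with limma 3.58.1 (lmFit, eBayes, 1 fit of 4 groups). P-values were adjusted over all probes by Benjamini-Hochberg, and a call needed an adjusted p below 0.05 and a change beyond 1 or -1. In simulated data for the M-value with 200 changed of 40808 probes, 71.5% of these were called, 7 unchanged probes were called, and 0 were called when none had changed. The simulated shifts lay in p6 and were all beyond 1 or -1. No shift common to all genes was simulated, so these figures do not measure errors that come from the scaling. The 75th percentile of the intensities ran from 241 to 567 per array, and signal over background and 3 arrays per group limit the precision.

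Replicate numbers coincide with 3 slides, each with 1 array of every group and 1 scan time. The members, the gene lists and the limits were chosen with earlier results of these data known. Every member could be named, with values on every array for called members, for the highest and the lowest M-value of each class and for Eif4e, Eif4ebp1 and Eif4ebp2. Further probes are given where their M-value differed by over 1 or by a call of M, and those of Eif2s3x, Eif3j1 and Eif5b besides. For the changes within a fraction and the fraction differences, further probes are given for some genes only. Agreement of the probes not given is therefore not shown. Alternatives concerned scaling, background, dim probes, outlier spots, the replicate block, the prior variance, the choice of probe and left-out arrays. Start windows and symbols came from RefSeq tables of GRCm38.p6.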

Additional observations from a re-analysis of the deposited data

Results flagged for a closer look

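Eif3l was the member whose change over time was called in opposite directions in the 2 fractions, up in polysomal and down in non-polysomal RNA, and the difference itself, which the M-value tests, was 2.16 (adjusted p = 2.04e-06 by limma). The polysomal change was 1.13 and the non-polysomal change -1.03. The latter was -0.996 without the second np0 array and -0.98 without the third np6 array, and the polysomal change was 0.65 under the 75th percentile and -0.14 under quantile normalization.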

How the results depend on the processing

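Of 375 values of counts and medians under alternatives, 336 stayed within 1.5 times the count or within the spread of the slides. Scaling moved the most. Under the 75th percentile, 7 members were called higher by M, 15 rose in polysomal RNA, and 4 fell in non-polysomal RNA, as did 8.81% of all genes. There 6 were polysomal at 0 h, and 16 were polysomal and 7 non-polysomal at 6 h. The medians of M were 0.83 for eIF3, -0.070 for eIF2 and eIF2B and 0.31 for eIF4F. Under quantile normalization 6 members were higher and 1 lower by M, 4 rose and 1 fell in polysomal RNA, and 3 rose and 5 fell in non-polysomal RNA. There 13 were polysomal at 0 h, and 15 were polysomal and 7 non-polysomal at 6 h. Of all genes, 7.34% rose and 8.48% fell in non-polysomal RNA. At 0 h 14.4% of all genes were polysomal, and at 6 h 13.5% were polysomal and 14.1% non-polysomal. The medians were 0.50, -0.31 and 0.20, and Eif3c had an M-value of -0.023. Under a line through the spike-ins 21 members were called by M, beside 63.8% of all genes. In non-polysomal RNA 4 fell, beside 9.93% of all genes, and the medians were 1.40, 0.67 and 1.07. The regulators, added to these alternatives after the data had been seen, gave 1 higher and 3 lower under the percentile and under the quantile scaling and 18 higher under the line.

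Under normexp 1 member was called higher by M, where only 0.257% of all genes were called higher and 0% lower. The loss of calls was thus not particular to the members. In non-polysomal RNA 0 members fell, and 0 regulators were called higher and 0 lower by M. The medians were 1.04 for eIF3 and 0.50 for eIF2 and eIF2B, both below the 3.30 of all genes. On 3 arrays its median log2 signal was 8.32 or more, where the other 9 had at most 6.81, so these values rest on a correction that differed between arrays. The cause of the moves and of the changes of sign was not tested. With outlier spots kept the eIF3 median was 1.38. Leaving out single arrays or slides gave 13 to 16 members called higher by M, 23 to 28 that rose in polysomal RNA, 1 to 3 that fell in non-polysomal RNA, 19 to 22 polysomal and 6 to 7 non-polysomal at 0 h, 30 to 31 and 3 to 4 at 6 h, and 6 to 9 regulators called higher. With 1 array left out of a group the others set its spread.

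With the replicate number as a block 14 members were called higher by M and no call of a member by M changed. Deviations of arrays with the same number correlated from -0.10 to 0.42. Among the arrays of the other groups, 8 of 12 arrays correlated best with an array of their own number. The main fit nonetheless did not take the numbers as pairs. Leaving out dim probes, a trend in the prior variance and the deposited values moved none of the counts and medians beyond these limits, nor did the mean over probes. No brightest member probe was dim, and a trend leaves the estimates as they are. Leaving out dim probes and the trend could therefore change member counts only through the adjusted p, and could not change the medians. Their values are among the 336 that stayed.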
